A study of Mus musculus with 8 samples.

Results

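The genes examined were 10 known markers of foam cells and of lipid-associated macrophages, chosen by name from the 24421 gene symbols counted in mouse macrophages: Trem2, Tyrobp, Spp1, Lgals3, Gpnmb, Cd9, Cd63, Fabp4, Fabp5 and Pparg. RNA was sequenced from primary macrophages of mice on a normal diet in 8 libraries: 3 from wild-type mice (WT), 3 labelled LysM-DKO and 2 labelled ABCG1KO. The series' design text speaks of a double knockout of the epsins, adaptor proteins of clathrin-mediated endocytosis, and LysM is the usual name of the myeloid Cre driver inserted in the lysozyme gene Lyz2, so LysM-DKO was taken as that genotype. ABCG1 exports cholesterol from cells, and the labels do not say whether its knockout was restricted to a cell type. The study asked how the epsins and ABCG1 bear on lipid handling in macrophages. The labels give no age, no tissue of origin and no statement that replicates came from separate mice, so the p-values below measure only the spread between these libraries, which may in part be technical.

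Foam cells are macrophages that have filled with cholesteryl ester droplets in the arterial wall, and lipid-associated macrophages are their counterpart in obese fat and other lipid-rich tissue. TREM2 is a surface receptor for lipids and lipoproteins that signals through the adaptor DAP12, encoded by Tyrobp. GPNMB, osteopontin (Spp1), galectin-3 (Lgals3) and the tetraspanins CD9 and CD63 are made in large amounts by such cells, the fatty acid binding proteins FABP4 and FABP5 carry fatty acids within them, and PPARγ (Pparg) is the fatty-acid-sensing nuclear receptor that drives several lipid genes. None of these genes is particular to foam cells, and other macrophages make them too.

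The promoters of 3 of the genes are shown because 2 of them, Gpnmb and Spp1, had the largest falls described below, and Trem2, the receptor of the set, did not pass the test. Each sequence is the 250 bases before a RefSeq transcription start (GRCm38.p6), on the coding strand. Capitals mark the motifs found.

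Gpnmb, chr6:49036268-49036517, plus strand: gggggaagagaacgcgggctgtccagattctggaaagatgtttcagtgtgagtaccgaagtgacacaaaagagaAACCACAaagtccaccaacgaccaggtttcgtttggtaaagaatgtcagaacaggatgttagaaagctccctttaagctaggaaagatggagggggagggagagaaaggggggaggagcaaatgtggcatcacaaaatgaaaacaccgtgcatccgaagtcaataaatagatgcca

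Spp1, chr5:104434861-104435110, plus strand: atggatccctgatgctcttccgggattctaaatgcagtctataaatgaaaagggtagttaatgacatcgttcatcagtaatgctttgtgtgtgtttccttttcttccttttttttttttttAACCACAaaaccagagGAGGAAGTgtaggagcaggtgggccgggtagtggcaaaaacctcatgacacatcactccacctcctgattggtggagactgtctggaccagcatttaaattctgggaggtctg

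Trem2, chr17:48346151-48346400, plus strand: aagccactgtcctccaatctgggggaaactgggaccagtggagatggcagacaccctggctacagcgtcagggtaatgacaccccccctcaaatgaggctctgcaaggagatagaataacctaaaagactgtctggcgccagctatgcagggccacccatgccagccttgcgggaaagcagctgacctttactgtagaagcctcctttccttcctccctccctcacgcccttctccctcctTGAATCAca

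RefSeq promoters were at hand for 7 of the 10 genes, all but Tyrobp, Fabp4 and Fabp5. Some genes had several, and 10 promoters were searched. On either strand, 4 motifs were searched. CACGTG is the E-box bound by MiT/TFE factors among others, and 6.02% of 32851 promoters of the same length hold it. Its variant CATGTG is in 12.3%. TGANTCA (6.75%) is a loose form of the AP-1 motif that allows any middle base, where the usual motif has C or G. The last was 2 copies of AGGTCA with 1 base between them, the direct repeat bound by PPAR with RXR (0.0335%). After the sequences had been read, 2 further motifs were added: AACCACA, the RUNX motif (4.40%), and GAGGAAGT, an ETS motif of the kind bound by PU.1 (2.44%). Because these 2 were chosen after that reading, their matches cannot be weighed against these shares. No 2 of the marked matches overlap. AACCACA lay 176 to 170 bases before the start of Gpnmb and 129 to 123 bases before the Spp1 start shown. In that Spp1 promoter it was followed by GAGGAAGT at 113 to 106 bases. A further Spp1 promoter, chr5:104435942-104436191, held none of the 6 motifs. TGANTCA lay 9 to 3 bases before the Trem2 start as TGAATCA, whose middle base is neither C nor G. Cd9 had CATGTG on the minus strand at 38 to 33 bases. The promoters of Lgals3, Cd63 and Pparg held none of the 6 motifs in this window. Each match describes the letters only and was not tested as a binding site.

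The genotypes were checked first. Abcg1 was at 345 to 405 CPM (the count over the scaled library size, on the usual scale of that name) in WT; LysM-DKO libraries had 208 to 524 CPM, and ABCG1KO libraries only 60.4 and 73.4 CPM. Epn1 was at 191 to 230 CPM in WT and at 155 to 183 CPM in the libraries labelled LysM-DKO, so most of its transcript remained there. Epn2 was at 4.97 to 8.86 CPM in WT and 5.67 to 13.2 CPM in LysM-DKO. Counts are summed over whole genes and do not show the loss of single exons, and every direction given for LysM-DKO rests on the label. The female transcript Xist was present in all WT libraries and in LysM-DKO 2 and 3, and the Y-linked Ddx3y in LysM-DKO 1 and both ABCG1KO libraries. Sex and genotype therefore cannot be told apart in ABCG1KO against WT. Macrophage markers were high in every library, with a summed level of 8 genes of 18246 to 21335 CPM in WT, 11857 to 14139 CPM in LysM-DKO and 19885 to 23235 CPM in ABCG1KO. Much of this sum was Lyz2, the gene whose promoter drives LysM-Cre, at 13004 to 15710 CPM in WT, 6177 to 8105 CPM in LysM-DKO and 11237 to 14412 CPM in ABCG1KO. The other 7 markers, a sum added after the data had been seen, came to 5242 to 5890 CPM in WT, 5680 to 6034 CPM in LysM-DKO and 8648 to 8824 CPM in ABCG1KO.

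All 10 genes were expressed in every group and passed the filter on low counts. Within WT, levels were compared between genes per length, as CPM per kilobase of the principal transcript (mean ± SD, n = 3). Gpnmb was highest at 7599 ± 1106, followed by Lgals3 at 4786 ± 769 and Spp1 at 2641 ± 1258. Tyrobp (1792 ± 277), Fabp5 (1571 ± 255), Cd63 (1439 ± 327), Trem2 (1048 ± 267) and Cd9 (740 ± 107) came next, and from Spp1 down to Cd9 the ranges of neighbours in this order overlapped. Fabp4 at 504 ± 89.5 and Pparg at 51.2 ± 9.02 CPM per kilobase were lower without overlap. The transcription factor Pparg was thus the least abundant of the set by a wide margin.

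By CPM, Gpnmb ranked 3 among all genes in WT and in LysM-DKO, and 14 in ABCG1KO. It took 2.22% to 3.03% of all gene counts in WT and 0.173% and 0.499% in the ABCG1KO libraries. Spp1 dropped from rank 18 (WT) and 19 (LysM-DKO) to 536 (ABCG1KO). Trem2 moved little in rank, from 84 in WT to 91 in LysM-DKO and 124 in ABCG1KO.

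The order per length was nearly the same in LysM-DKO, where Gpnmb (5789 ± 910), Lgals3 (3683 ± 855) and Spp1 (1851 ± 591, n = 3) again led. In ABCG1KO the first 4 places were taken by Lgals3 (1161 ± 282), Tyrobp (1056 ± 231), Gpnmb (833 ± 564) and Trem2 (664 ± 212 CPM per kilobase, n = 2), whose neighbouring ranges overlapped. Spp1 came ninth there at 174 ± 50.7 CPM per kilobase, above Pparg alone.

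**Figure D1:**
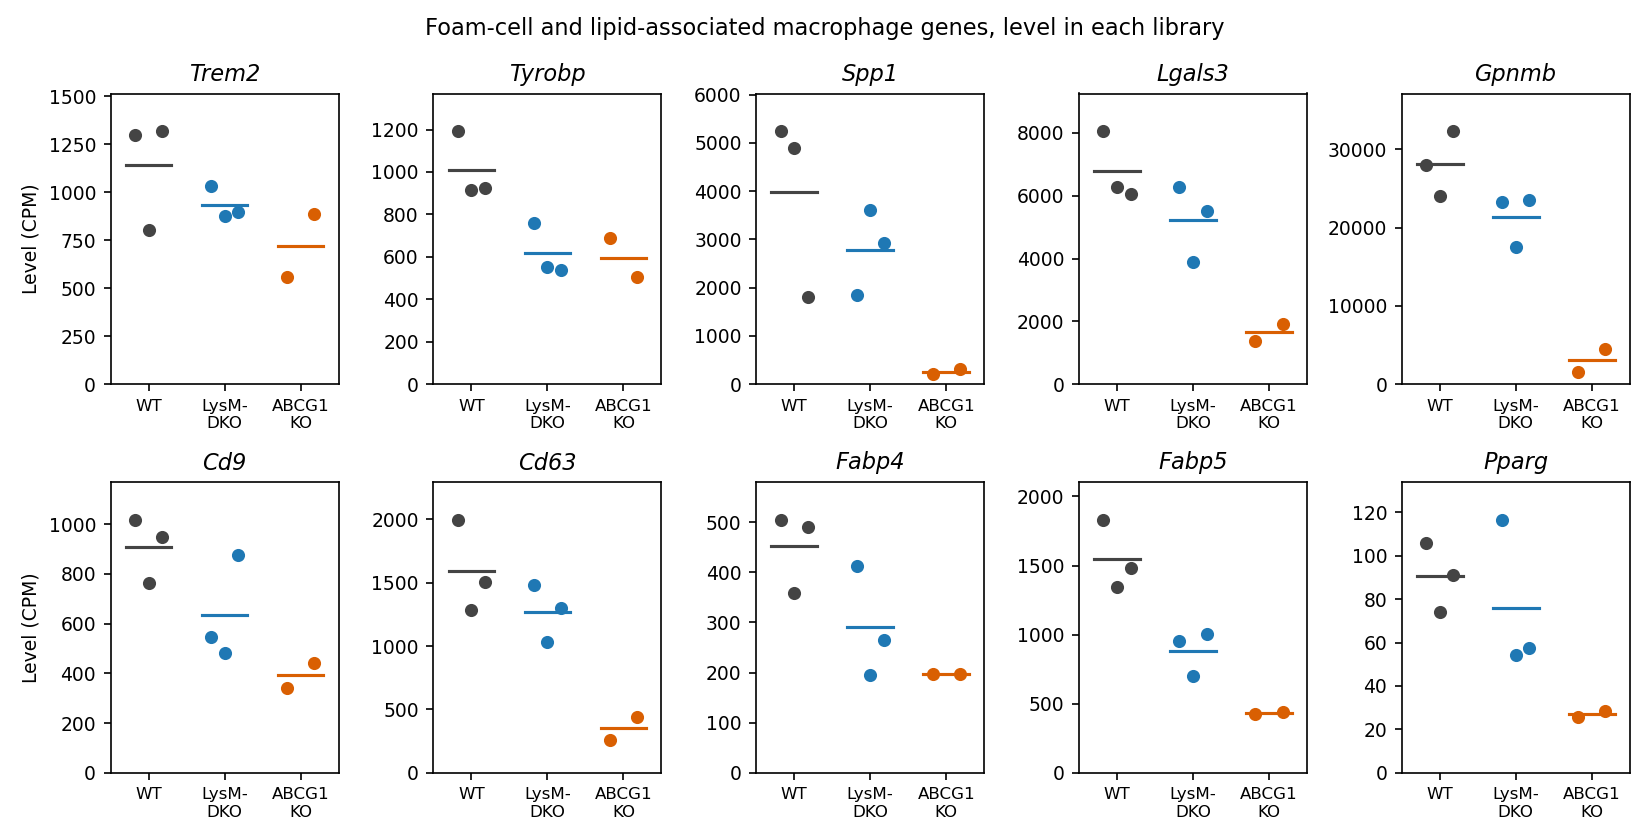
Level of each of the 10 genes in CPM (vertical axes, each from 0) in the 3 WT, 3 LysM-DKO and 2 ABCG1KO libraries; points are libraries and bars are group means. In 9 genes both ABCG1KO points lie below every WT point, and in Trem2 ABCG1KO 2 (885 CPM) lies above WT 2 (805 CPM).

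ABCG1KO libraries held less of most of these transcripts than WT libraries. Of the 10 genes, 8 fell past an adjusted p of 0.05 in edgeR's quasi-likelihood test (Benjamini-Hochberg over 13821 genes) and none rose. In the same comparison 16% of all genes tested were called, and 8.83% were called lower. The median log2 fold change of the 10 genes was -1.79, beside 0.01 over all genes tested. In 9 of the 10 the ABCG1KO libraries lay wholly below WT; groups did not overlap in 48.2% of all genes, and in 24.2% with ABCG1KO lower. DESeq2 called 9 of the 10, all lower, where it called 23.5% of genes and 13% lower. With library sizes unscaled, the median of all genes moved to 0.25, the calls over all genes turned from 996 higher and 1220 lower to 2074 higher and 856 lower, and the same number of the 10, 8, was called, all lower. In bulk RNA, fewer cells of a kind and less RNA per cell cannot be told apart.

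In ABCG1KO against WT the receptor and its adaptor had the estimates nearest to 0 of the 10 genes. Trem2 (chr17:48346401-48354147, plus strand, GRCm38, as for all genes below) was at 1298, 805 and 1317 CPM in WT 1 to 3, at 1031, 878 and 898 CPM in LysM-DKO 1 to 3, and at 559 and 885 CPM in ABCG1KO 1 and 2. WT 2 was the low WT library, and it lay below ABCG1KO 2 and all 3 LysM-DKO libraries. The log2 fold change in ABCG1KO against WT was -0.66 (SE 0.279, adjusted p 0.147) and did not pass the test. It was -0.37 without ABCG1KO 1 and -1.03 without ABCG1KO 2, with adjusted p of 0.517 and 0.0770. In LysM-DKO against WT it was -0.29 (SE 0.245, adjusted p 0.650).

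Tyrobp (chr7:30413760-30417585, plus strand) encodes the short transmembrane adaptor through which TREM2 and several other receptors activate the kinase SYK. It was at 1191, 915 and 926 CPM in WT 1 to 3, at 758, 553 and 539.7 CPM in LysM-DKO 1 to 3, and the ABCG1KO libraries had 687 and 503 CPM. Every library of both other groups lay below every WT library. The estimate was -0.71 in LysM-DKO (SE 0.207, edgeR adjusted p 0.353) and -0.76 in ABCG1KO (SE 0.236, adjusted p 0.0617), and neither passed. DESeq2, the alternative count test, called both, with adjusted p of 0.0468 and 0.0138.

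Of 12 other genes of TREM2 signalling and shedding, 4 rose in ABCG1KO against WT, none fell and 8 were not called, with a median of 0.32 beside 0.01 for all genes. For this and the lists below, 16% of all genes tested were called in this comparison, 996 of 13821 higher and 8.83% lower. Pik3r1, a regulatory subunit of PI3-kinase, rose by 1.18 on the log2 scale (SE 0.161, adjusted p 0.00294), from 49.9 ± 7.73 CPM (n = 3) to 113 ± 2.67 (n = 2). Vav1 rose by 0.79 (adjusted p 0.00680) and Inpp5d, the phosphatase SHIP1 that restrains this pathway, by 0.79 (adjusted p 0.0302). Adam17, the protease that sheds TREM2 from the surface, rose by 0.74 (adjusted p 0.0187). When each library was left out in turn, 2 to 4 genes of the list were called: Pik3r1 and Vav1 in all 8 fits, whereas Adam17 and Inpp5d were lost without WT 1, WT 2, ABCG1KO 1 or ABCG1KO 2 (adjusted p up to 0.0819 and 0.126). None of the 12 was called in LysM-DKO against WT.

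Of 8 further receptors that couple to DAP12, 4 were called higher in ABCG1KO, all at low levels, and none lower. In sum the list was lower, at 281 and 292 CPM in ABCG1KO against 381 to 428 CPM in WT. Of the 8, 2 lay wholly below WT and 4 wholly above, where groups did not overlap in 48.2% of all genes. DESeq2 called 4 higher and 1 lower. Siglech had no counts in WT and 5.22 ± 0.644 CPM in ABCG1KO. Treml4 was at 0.401 ± 0.0726 CPM in WT and 5.44 ± 0.0722 CPM in ABCG1KO. Trem3 (none in WT, 1.11 ± 0.564 CPM) and Trem1 (0.00863 CPM in WT, 2.88 ± 3.77 CPM) were lower still, and a level of 3 counts corresponds to 0.0716 to 0.101 CPM in these libraries. No fold is given for such genes. Siglech was called in all 8 fits that left out 1 library. The other 3 were lost without WT 1, WT 2, WT 3 or ABCG1KO 1, and Trem3 also without ABCG1KO 2, with adjusted p up to 0.0689 (Treml4), 0.108 (Trem3) and 0.260 (Trem1).

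The secreted proteins included the largest fall of the set. Osteopontin, encoded by Spp1 (chr5:104435118-104441050, plus strand), is a matrix phosphoprotein that recruits macrophages. Its level was 5236, 4903 and 1799 CPM in WT 1 to 3, 1839, 3604 and 2925 CPM in LysM-DKO, and 208 and 316 CPM in ABCG1KO. WT 3 was about as low as LysM-DKO 1, and both ABCG1KO libraries lay far below all others. Spp1 fell by 3.93 on the log2 scale in ABCG1KO (SE 0.562, adjusted p 0.00381), to 6.58% of the WT mean. In LysM-DKO the estimate was -0.51 (SE 0.421, adjusted p 0.632) and the groups overlapped. Spp1 overlaps the annotated gene Gm42793 on the same strand, and reads of that overlap cannot be assigned to either.

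Among 8 osteopontin receptor genes, mainly integrin chains and Cd44, 1 fell in ABCG1KO, 1 rose and 6 were not called. In the same comparison 16% of all genes were called. Itgb3, the β chain of the vitronectin receptor, fell by 3.19 on the log2 scale (SE 0.555, adjusted p 0.00941), from 45.3 ± 20.2 CPM to 4.95 ± 1.94. Itga4 rose by 0.86 (SE 0.240, adjusted p 0.0442). The Itgb3 call was lost without ABCG1KO 1 (adjusted p 0.0709), and the Itga4 call in all of the 8 fits but that without WT 1 (adjusted p up to 0.158).

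Galectin-3, the lectin encoded by Lgals3 (chr14:47367751-47386160, plus strand) and long used as the Mac-2 surface marker, was at 8043, 6288 and 6044 CPM in WT, 6277, 3899 and 5504 CPM in LysM-DKO, and 1364 and 1929 CPM in ABCG1KO. It fell by 2.04 in ABCG1KO (SE 0.291, adjusted p 0.00357), a 4.12-fold lower mean. In LysM-DKO the estimate was -0.38 (SE 0.241, adjusted p 0.556), with overlapping groups. Of 5 other galectin genes tested, Lgals1 was called lower in ABCG1KO, at the edge of the threshold (-1.26, SE 0.364, adjusted p 0.0499), and 4 were not called. Of the 8 fits that left out 1 library, Lgals1 was called only in that without ABCG1KO 2 (adjusted p up to 0.220 in the others).

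The membrane glycoprotein GPNMB, made in lysosome-stressed and lipid-laden macrophages, is encoded by Gpnmb (chr6:49036546-49070929, plus strand). Its transcript was at 27963, 24109.5 and 32295 CPM in WT 1 to 3, 23218, 17541 and 23514 CPM in LysM-DKO, and 1607 and 4561 CPM in ABCG1KO. The 3 groups did not overlap, but LysM-DKO lay close under WT while ABCG1KO lay far below. Gpnmb fell by 3.19 in ABCG1KO (SE 0.460, adjusted p 0.00378), a 9.12-fold lower mean. The 2 ABCG1KO libraries differed: the estimate was -2.63 without ABCG1KO 1 and -4.14 without ABCG1KO 2, and both passed (adjusted p 0.00754 and 0.000959). In LysM-DKO it was -0.39 (SE 0.359, adjusted p 0.674).

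MiT/TFE factors are the transcription factors of lysosomal genes, and Gpnmb is one of their known targets. The 4 factors Mitf, Tfeb, Tfec and Tfe3 were tested and none was called in either comparison with WT. Their log2 fold changes in ABCG1KO ran from -0.69 (Tfec, adjusted p 0.202) to 0.21 (Mitf, adjusted p 0.475).

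The tetraspanins CD9 and CD63 organise membrane and endosomal domains, and CD63 is a standard marker of late endosomes and exosomes. Cd63 (chr10:128900989-128912822, plus strand) was at 1996, 1288 and 1504 CPM in WT, 1486, 1031 and 1303 CPM in LysM-DKO and 259 and 442 CPM in ABCG1KO. Cd9 (chr6:125460266-125494791, minus strand) was at 1017, 762 and 947 CPM in WT, 545, 482 and 877 CPM in LysM-DKO and 342 and 443 CPM in ABCG1KO. Both were lower in each ABCG1KO library than in any other library, and in LysM-DKO both overlapped WT. Cd63 fell by 2.19 in ABCG1KO (SE 0.317, adjusted p 0.00381) and Cd9 by 1.21 (SE 0.289, adjusted p 0.0269). The Cd9 call was lost without WT 1 (adjusted p 0.0723), WT 3 (0.0655), ABCG1KO 1 (0.151) or ABCG1KO 2 (0.0512). In LysM-DKO the estimates were -0.33 for Cd63 (adjusted p 0.621) and -0.52 for Cd9 (adjusted p 0.455). Of 15 other tetraspanin genes tested, 2 fell in ABCG1KO, 1 rose and 12 were not called, beside 16% of all genes called. Tspan13 fell by 2.12 (adjusted p 0.00237), the leukocyte tetraspanin Cd53 fell by 1.36 (adjusted p 0.00975) and Tspan4 rose by 0.56 (adjusted p 0.0331). Both falls were called whichever library was left out. Tspan4 was called without WT 1 and without LysM-DKO 3 but in none of the other 6 such fits (adjusted p up to 0.116).

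The levels of Cd63, Cd9 and Fabp5 are less certain than the rest because part of their sequence recurs elsewhere. Of their stretches of 31 bases, 15.9%, 10.8% and 9.27% were also found at other loci, and for Cd63 most of these lay in the pseudogene Cd63-ps (13.4%). The other 7 genes shared under 1%. Reads aligned to several loci made up 6.93% and 6.74% of the reads of the ABCG1KO libraries against 2.83% to 3.00% in WT, and their part in the change of these 3 genes was not tested. In a fit restricted to the 8580 genes with under 1% shared sequence, 5 of the remaining 7 were called lower in ABCG1KO: Spp1, Lgals3, Gpnmb, Fabp4 and Pparg. Cd9 also overlaps Gm28809 and Gm26728 and Pparg overlaps Gm44079, all on the opposite strand. Whether counting used strand is not given in the sources used here, and reads of such overlaps may not be separable.

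The fatty acid binding proteins fell in ABCG1KO, and Fabp5 had the lowest LysM-DKO estimate of the set. Fabp5 (chr3:10012548-10016607, plus strand), the epidermal form also made by macrophages, was at 1830.3, 1341 and 1479 CPM in WT 1 to 3, 952, 698 and 1005 CPM in LysM-DKO, and 429 and 437 CPM in ABCG1KO. The 3 groups formed 3 steps without overlap. Fabp5 fell by 1.84 in ABCG1KO (SE 0.228, adjusted p 0.00176), the smallest adjusted p among the 10 genes. In LysM-DKO the estimate was -0.81 (SE 0.192, edgeR adjusted p 0.270), or 57.1% of the WT mean, which did not pass, and DESeq2 called it (adjusted p 0.00665).

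Fabp4 (chr3:10204088-10208576, minus strand), the adipocyte form and a known PPARγ target, was at 505, 359 and 491 CPM in WT, 412, 195 and 264 CPM in LysM-DKO, and 197 and 198 CPM in ABCG1KO. LysM-DKO 2 was as low as the ABCG1KO libraries while LysM-DKO 1 lay within the WT range. Fabp4 fell by 1.19 in ABCG1KO (SE 0.311, adjusted p 0.0358), but the call was lost without WT 1 (adjusted p 0.0902), WT 2 (0.0501), WT 3 (0.0856), ABCG1KO 1 (0.153) or ABCG1KO 2 (0.109). In LysM-DKO the estimate was -0.64 (SE 0.268, adjusted p 0.423). All 5 adipocyte markers listed had at most 3 counts in every library, with a summed level of at most 0.0293 CPM, so adipocytes themselves were at or near 0. Of the 8 other family members, 2 were abundant enough to test and neither Fabp3 nor Fabp7 was called.

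Pparg (chr6:115360951-115490399, plus strand) was at 106, 74.2 and 91.4 CPM in WT, 117, 54.3 and 57.5 CPM in LysM-DKO and 25.6 and 28.6 CPM in ABCG1KO. LysM-DKO 1 had the highest level of all libraries and the other 2 LysM-DKO libraries lay under every WT library. Pparg fell by 1.74 in ABCG1KO (SE 0.350, adjusted p 0.0154), to 29.9% of WT. The call was lost when either ABCG1KO library was left out, with adjusted p of 0.101 without ABCG1KO 1 and 0.0547 without ABCG1KO 2. In LysM-DKO the estimate was -0.25 (SE 0.293, adjusted p 0.750).

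Of 8 tested PPAR and RXR receptors and cofactors, 3 rose, 1 fell and 4 were not called in ABCG1KO, beside 16% of all genes called. Rxra, the common partner of the PPARs, rose by 0.96 (SE 0.144, adjusted p 0.00450), Ppard by 0.61 (adjusted p 0.0358) and the coactivator Ppargc1b by 1.10 (adjusted p 0.0485). The related coactivator Ppargc1a was called lower at a level of 1.46 ± 0.541 CPM in WT and 0.0157 CPM in ABCG1KO. Of 7 other PPAR target genes, 2 fell and 5 were not called: the lipid droplet coat gene Plin2 fell by 1.14 (SE 0.238, adjusted p 0.0170) and the lipoprotein lipase gene Lpl fell by 1.59 (SE 0.434, adjusted p 0.0418). Rxra and Ppargc1a were called in all 8 fits that left out 1 library. Ppard was lost without any 1 WT or ABCG1KO library (adjusted p up to 0.111), Ppargc1b in all 8 fits (up to 0.150), Plin2 without WT 2 or ABCG1KO 1 (up to 0.108) and Lpl in all but those without LysM-DKO 2 or LysM-DKO 3 (up to 0.208).

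**Figure D2:**
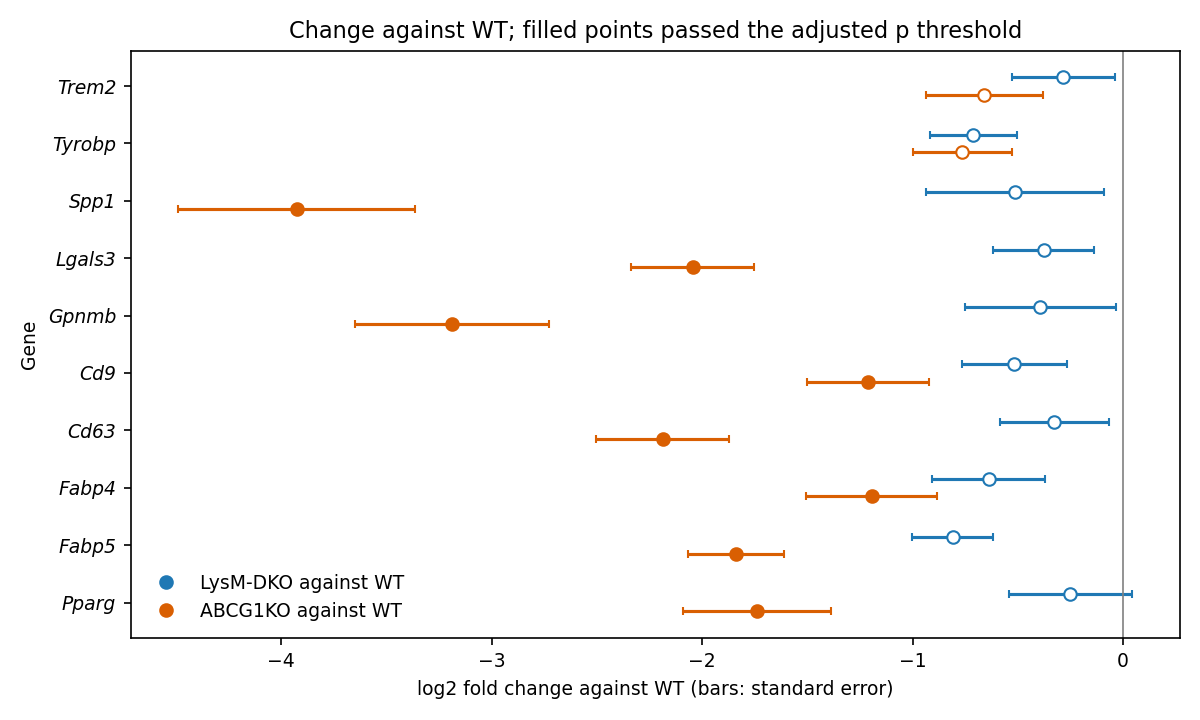
Log2 fold change against WT (horizontal axis) of the 10 genes in LysM-DKO and ABCG1KO; points are edgeR estimates, bars their standard errors, and filled points passed an adjusted p of 0.05. All estimates lie below 0, with 8 of the 10 ABCG1KO points filled and no LysM-DKO point filled; both comparisons share the WT libraries.

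In LysM-DKO against WT, none of the 10 genes passed the edgeR test, in a comparison where 5 of 13821 genes, 0.0362%, were called at all. All 10 estimates lay below 0, from -0.81 (Fabp5) to -0.25 (Pparg), with a median of -0.45 beside 0.02 for all genes tested. At an unadjusted p under 0.05 there were 3 of the 10, Fabp5, Tyrobp and Fabp4, beside 11.7% of all genes. DESeq2 called 2 lower, Fabp5 and Tyrobp, where it called 2.21% of genes and 1.39% lower. LysM-DKO lay wholly below WT for 3 genes, Tyrobp, Gpnmb and Fabp5; groups did not overlap for 21% of all genes, and for 9.98% with LysM-DKO lower. Both knockouts were compared with the same 3 WT libraries, so their estimates are not independent of each other.

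LysM-DKO was also compared with ABCG1KO, in the same fit of all 8 libraries. All 10 estimates were higher in LysM-DKO, 6 of them past the threshold, where 13.4% of all genes were called and 7.76% were called higher in LysM-DKO. Spp1 was 3.41 higher on the log2 scale (SE 0.546, adjusted p 0.00741), Gpnmb 2.80 (SE 0.451, adjusted p 0.00729), Cd63 1.86 (SE 0.311, adjusted p 0.00837) and Lgals3 1.67 (SE 0.286, adjusted p 0.00908). Pparg at 1.49 (adjusted p 0.0294) and Fabp5 at 1.03 (adjusted p 0.0218) followed. Cd9 (0.69, adjusted p 0.139), Fabp4 (0.56, adjusted p 0.251), Trem2 (0.37, adjusted p 0.397) and Tyrobp (0.05, adjusted p 0.905) did not pass. LysM-DKO lay wholly above ABCG1KO in 7 genes; groups did not overlap in 48.2% of all genes, and in 25.6% with LysM-DKO higher. With both groups fitted alone, 4 of the 10 were called beside 6.99% of all genes, and Fabp5 (adjusted p 0.0524) and Pparg (adjusted p 0.0785) were lost. Without ABCG1KO 1, Gpnmb was the only one of the 10 still called, in a fit that called 3.93% of all genes. LysM-DKO 1 and both ABCG1KO libraries carried the same Y-linked transcript, and in all 10 genes both ABCG1KO libraries were below LysM-DKO 1, as in 38.9% of all genes tested. This rests on a single LysM-DKO library, the highest of its group in Trem2, Tyrobp, Lgals3, Cd63, Fabp4 and Pparg and the lowest in Spp1. The part of sex was not tested.

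Most genes of the wider signature lay lower in ABCG1KO than in WT, and a few lay higher. Of the 20 genes, 15 lay wholly below WT and 4 wholly above, where 24.2% of all genes lay wholly below. Of 20 other genes of lipid-associated macrophages, 8 fell in ABCG1KO against WT, 2 rose and 10 were not called, with a median of -0.92 beside 0.01. Of all genes tested, 8.83% were called lower and 996 of 13821 higher. Mmp12, the macrophage elastase, fell by 2.81 (adjusted p 0.00982), from 9064 to 1295 CPM, and Itgax, encoding CD11c, fell by 3.17 (adjusted p 0.0102, with 10.7% shared sequence), from 1865 to 208 CPM. The β-glucan receptor gene Clec7a fell by 1.33 (adjusted p 0.0116), and Plin2 was given above. The 2 that rose, named after their values were seen, were the protease inhibitor Cst7, from 0.224 to 7.09 CPM, and the apoptotic-cell receptor Axl, by 1.23 (adjusted p 0.0366), from 92.3 to 217 CPM. With each library left out in turn, 3 (without ABCG1KO 1) to 7 of the 20 were called lower and 0 to 2 higher, and DESeq2 called 14 lower and 3 higher. Mmp12 and Itgax were called in all 8 fits and Clec7a in all but that without ABCG1KO 2 (adjusted p 0.0536). Cst7 was lost without WT 1 or ABCG1KO 1 (up to 0.0848), and Axl without WT 1, WT 2, WT 3, LysM-DKO 3 or ABCG1KO 2 (up to 0.206). In LysM-DKO none of the 20 was called, with a median of -0.34. There 7 of the 20 lay wholly below WT and 1 wholly above, where 9.98% of all genes lay wholly below. Itgax and Mmp12, among the 7, had estimates of -1.46 and -1.19 (adjusted p 0.354 for both).

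**Figure D3:**
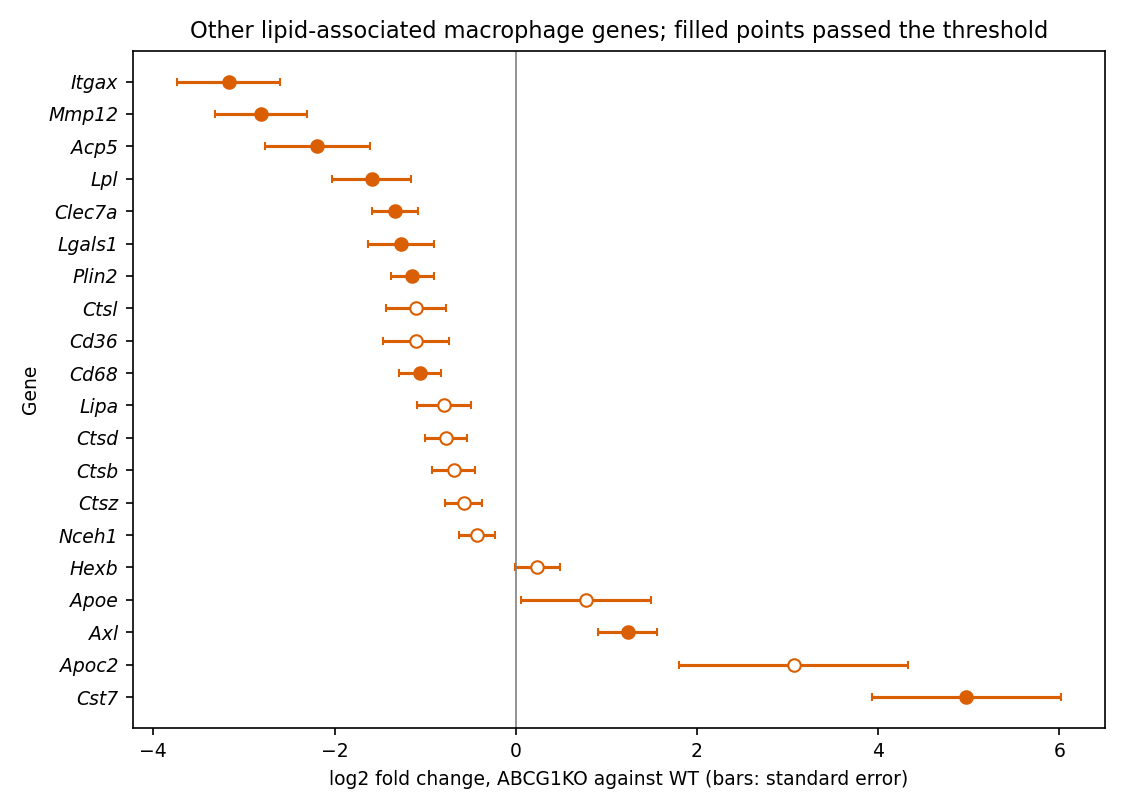
Log2 fold change in ABCG1KO against WT (horizontal axis) of 20 further genes of lipid-associated macrophages, sorted by size; points are edgeR estimates, bars standard errors, and filled points passed an adjusted p of 0.05. The 8 filled points left of 0 include Itgax and Mmp12, and the 2 filled points right of 0 are Axl and Cst7.

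Markers of macrophages and of other cells were measured in the same libraries. In ABCG1KO against WT, Adgre1 (F4/80) rose by 1.21 (adjusted p 0.0147), Csf1r by 1.19 (adjusted p 0.0172) and C1qa by 2.20 (adjusted p 0.00870). Cd68, a lysosomal glycoprotein gene, fell by 1.06 (adjusted p 0.0192), and the other 4 of the 8 macrophage markers were not called. Cd68 is also a gene of the wider signature, and its fall is already counted there. C1qa was called whichever library was left out. Adgre1 was lost without ABCG1KO 1 (adjusted p 0.0522), Csf1r without WT 2 or ABCG1KO 1 (up to 0.0859) and Cd68 without WT 1 or ABCG1KO 1 (up to 0.117). The summed level of 5 monocyte markers was 2.30 to 14.0 CPM in WT, 3.83 to 6.40 CPM in LysM-DKO and 44.0 to 159 CPM in ABCG1KO. For 5 markers of resident peritoneal macrophages it was 10.6 to 43.5, 3.51 to 33.3 and 60.3 to 138 CPM, and for 6 mast cell markers 2.41 to 3.62, 0.800 to 2.88 and 11.7 to 49.2 CPM. ABCG1KO 1 had the highest of these 3 sums. Of the 2 ABCG1KO libraries it also had the higher macrophage, neutrophil, B cell and T cell sums. Its fibroblast (160 against 1185 CPM) and mesothelial (6.15 against 23.1 CPM) sums were the lower. So were its endothelial, dendritic cell, alveolar macrophage and eosinophil sums. ABCG1KO 1 was the lower of the 2 in each of the 10 genes but Tyrobp (687 against 503 CPM). Fabp4 and Fabp5 hardly differed there (197 and 198 CPM, 429 and 437 CPM), and no link with these sums was tested.

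For 5 neutrophil markers found in the files the sums were 89.3 to 134 CPM in WT, 64.1 to 86.7 CPM in LysM-DKO and 206 to 353 CPM in ABCG1KO, with Retnlg at 0 in all groups and S100a9 at 0 in WT and LysM-DKO. Nearly all of this was Csf3r, the receptor gene for granulocyte colony-stimulating factor, at 84.3 to 131 CPM in WT, 59.6 to 85.4 CPM in LysM-DKO and 204 to 348 CPM in ABCG1KO. S100a8 overlapped between groups, at 2.32 to 3.42 CPM in WT, 0.800 to 2.90 CPM in LysM-DKO and 2.00 to 5.55 CPM in ABCG1KO, and Cxcr2 was at 0.0627 to 0.0943 CPM in ABCG1KO. For 5 dendritic cell markers the sums were 1.48 to 8.45, 1.31 to 3.00 and 11.1 to 12.4 CPM. Cd209a and Zbtb46 were higher in ABCG1KO (5.21 to 9.55 and 2.62 to 5.21 CPM) than in WT (0.285 to 1.08 and 0.285 to 1.16 CPM). Clec9a was lower, at 0.212 to 0.314 CPM in ABCG1KO against 0.674 to 5.96 CPM in WT. Flt3 and Xcr1 were at most 0.314 and 0.249 CPM in any library. Of the 3 dendritic cell markers tested, none was called in ABCG1KO against WT. The sum of 4 endothelial markers was lower in ABCG1KO, at 89.1 to 116, 62.4 to 88.4 and 12.3 to 24.3 CPM. It came almost wholly from Vwf (73.6 to 97.2, 43.6 to 69.7 and 10.9 to 22.9 CPM) and Kdr (13.0 to 18.3, 17.4 to 24.2 and 0.566 to 0.909 CPM). Cdh5 was higher in ABCG1KO than in WT, at 0.147 to 0.259 CPM in WT and 0.439 to 0.684 CPM in ABCG1KO, and Tie1 was at most 0.950 CPM in any library. The sums of 5 fibroblast markers overlapped between groups (753 to 911, 678 to 1662 and 160 to 1185 CPM), and so did those of mesothelial cells (7.61 to 43.8, 5.38 to 58.0 and 6.15 to 23.1 CPM) and B cells (2.51 to 30.3, 0.0242 to 1.40 and 2.64 to 15.1 CPM). T cell and eosinophil markers summed to at most 3.26 and 2.79 CPM in any library, and 4 alveolar macrophage markers to 13.0 to 29.6, 2.32 to 13.1 and 3.42 to 6.13 CPM. The part of these cell types in the changes of the 10 genes was not tested.

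The genes whose profile over the 8 libraries was nearest were found for Trem2 and each called gene among 8511 genes with a mean of at least 10 CPM. Likeness was the root mean square difference of log2(CPM + 0.5) after centring each gene, so a smaller value is a closer match. It is a description over 8 libraries that share their genotype steps. For Trem2, whose own SD over the libraries was 0.37, the nearest were Smyd3 (0.135), Oxct1 (0.141) and Paip2b (0.157), none of them a member of any list used here. Smyd3 was at 19.5, 13.4 and 19.0 CPM in WT 1 to 3 and 10.3 and 12.1 CPM in ABCG1KO, with the same dip in WT 2 as Trem2. Gpnmb, with an SD of 1.44, was nearest to Stra6l (0.193), Ttyh2 (0.244) and Atp6v0d2 (0.247), a subunit gene of the lysosomal proton pump, which was at 1500.0, 1351 and 1748 CPM in WT and 72.7 and 286 CPM in ABCG1KO. For Spp1 the nearest were Gstm2 (0.438), Pgk1 (0.439) and Mif (0.451), and Pgk1 and Mif share 54.7% and 60.5% of their sequence with other loci. These were the largest such values among the genes searched. Its SD, 1.65, was the largest too, and the measure is not scaled to a gene's own spread.

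Lgals3 and Cd63 were near neighbours of each other (0.147), the only pair of the 10 genes for which this held. Lgals3 was followed by Coro2a (0.182) and Knop1 (0.182), and Cd63 was nearest to Gstm1 (0.144) and then, after Lgals3, to Rps6ka2 (0.189). Fabp5 had the closest match of all, with Msmo1, an enzyme gene of cholesterol synthesis (0.109), then Ftl1 (0.167) and Myadm (0.194). Msmo1 was at 211, 137 and 136 CPM in WT, 113, 75.0 and 113 CPM in LysM-DKO and 44.4 and 43.9 CPM in ABCG1KO, the same 3 steps as Fabp5. Fabp4 was nearest to Arl11 (0.117), Daglb (0.149) and Pqlc3 (0.159), Cd9 to Mgst3 (0.120), Gsn (0.168) and Pbdc1 (0.182), and Pparg to Dennd2a (0.199), S100a1 (0.204) and Knop1 (0.210).

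**Figure D4:**
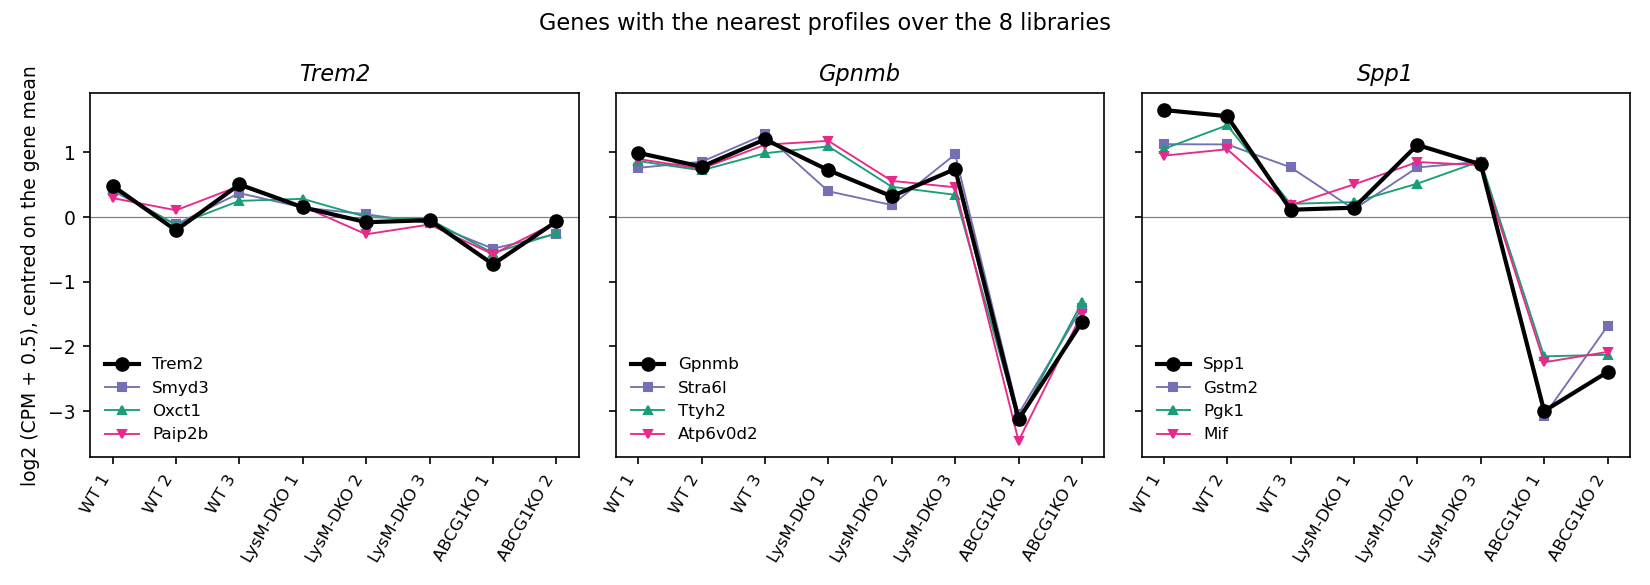
Profiles of Trem2, Gpnmb and Spp1 (black) and of the 3 genes nearest to each over the 8 libraries, as log2(CPM + 0.5) centred on each gene's mean (vertical axis). The Trem2 panel is shallow with low points in WT 2 and ABCG1KO 1, and the Gpnmb and Spp1 panels drop in the ABCG1KO libraries.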

How the data were processed

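RNA-seq of 8 macrophage libraries was analysed. The deposited values are raw counts per gene symbol made by the authors, 1 file per library, whose closing lines are those of htseq-count. The submitters' processing notes name STAR 2.7.9a, TopHat, HTSeq 0.11.2, DESeq2 1.30.1, limma and the build mm10, without a role or order; annotation and strand setting are not given in the sources used here. Counts in genes were 29567615 to 41888516 per library. The 5 special lines of each file (reads in no gene, in several genes or at several loci) stayed out of library sizes and tests; reads in no gene made up 4.26% to 6.07% in WT and LysM-DKO and 10.2% and 13.8% in ABCG1KO.

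Genes were kept by filterByExpr (minimum count 10), which left 13821, scaled by TMM and fitted in edgeR 4.0.16 (R 4.3.3) with robust quasi-likelihood, all 8 libraries in 1 fit and no covariate. The threshold for a call was an adjusted p of 0.05, by Benjamini-Hochberg over all genes tested. SE values are the log2 fold change over the root of F. DESeq2 1.42.0 on the same genes was an alternative. The script was tested on simulated data. Floors of 3 counts cover counting error only, as the labels name no molecular identifiers and such reads are not independent molecules. Loci, principal transcript lengths and stretches of 31 bases come from GENCODE M21 (GRCm38), the build the notes name. The members and lists were chosen with earlier results of these data known. Named genes are all 10 members, up to 4 called genes a list by adjusted p, Abcg1, Epn1, Epn2, and 3 nearest profiles for Trem2 and each called member. Alternatives were other scalings, filters, fits and tools, the replicate number as a block, genes of low shared sequence and leaving out each library.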

Additional observations from a re-analysis of the deposited data

Results flagged for a closer look

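Reads outside the genes showed a signal that no comparison above uses. Reads outside annotated genes made up 12.0% of the reads in ABCG1KO (mean of 2 libraries), against 5.29% in WT and 5.44% in LysM-DKO. Reads aligned to several loci made up 6.84% in ABCG1KO, against 2.94% and 2.80%. Every ABCG1KO library lay above every library of the other groups in both measures. Their part in the falls of the 10 genes was not tested.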

How the results depend on the processing

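With 2 to 3 libraries a group, single libraries set several calls. The count of the 10 genes called in ABCG1KO against WT, 8, was 5 without ABCG1KO 1, 5 without ABCG1KO 2 (where 853 of 14279 and 1848 of 14335 genes were called in all, against 2216 of 13821) and 5 to 8 over all fits that left out 1 library; Spp1, Lgals3, Gpnmb, Cd63 and Fabp5 were called in all 8 of those fits. It was 5 among the 7 genes left with under 1% shared sequence, where Cd9, Cd63 and Fabp5 were not tested. The median log2 fold change moved from -1.79 to -1.55 with library sizes unscaled, and ran from -1.90 without WT 2 to -1.66 without WT 1. For LysM-DKO against ABCG1KO the count of 6 ran from 1 (without ABCG1KO 1) to 6 when 1 library was left out, and the median from 0.99 to 1.41. For LysM-DKO against WT it was 2 with DESeq2 and 0 in every other fit, and with 1 library left out the median ran from -0.51 to -0.33. The Tyrobp difference between LysM-DKO and ABCG1KO, 0.05, reversed to -0.037 with library sizes unscaled, to -0.15 without LysM-DKO 1 and to -0.15 without ABCG1KO 2, and was 0.28 without ABCG1KO 1. The cause was not tested. Of 157 single-gene values per comparison, 142 (ABCG1KO against WT), 143 (LysM-DKO against ABCG1KO) and 155 (LysM-DKO against WT) kept direction and side of the threshold. Of the 29 further genes named as called, 10 were called in every fit that left out 1 library; these fits for them were added after the data had been seen.

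Replicate numbers did not pair the libraries consistently: deviations of same-numbered WT and LysM-DKO libraries correlated at 0.06, 0.57 and -0.03. The 0.57, of WT 2 with LysM-DKO 2, was the highest between any libraries of different groups, above 0.30 for WT 3 with LysM-DKO 1. Whether some libraries were paired cannot be told from these values. With the number as a block, 7 genes were called in ABCG1KO against WT (median -1.78), 5 in LysM-DKO against ABCG1KO (median 1.22) and 0 in LysM-DKO against WT (median -0.41). Cd9 (adjusted p 0.0616) and Fabp4 (0.0527) were then not called and Tyrobp was (0.0291). Over all genes the calls in ABCG1KO against WT went from 2216 to 1456 with the block, to 1589 with both groups fitted alone and to 3239 with DESeq2.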
